A study of Mus musculus with 8 samples.

Results

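The genes described here build and handle the hyaluronan-bound proteoglycan matrix of cartilage: the core proteins aggrecan (Acan) and versican (Vcan), link protein (Hapln1), the hyaluronan synthases Has2 and Has3, the hyaluronan receptor Cd44 and the hyaluronidases Hyal1 and Hyal2. Members were all probe sets whose annotation gave 1 of these 8 symbols alone. This found 21 of 45037 probe sets, for 7 of the 8 genes. Hyal1 had none, because the platform annotation assigns both of its probe sets to Hyal1 and to the overlapping gene Naa80 together, so no value is given for it. Vcan had 8 probe sets, Hapln1 and Cd44 4 each, Has2 2, and Acan, Has3 and Hyal2 1 each. A probe set entered the genotype test where its mean signal over all arrays exceeded the median of all probe sets (106). Of the members 14 did so, for 6 genes, and 7 did not: the single probe set of Has3, 5 of Vcan and 1 of Cd44.

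Rib chondrocytes were collected from FVB mouse embryos at E18.5, late in gestation, from 4 litters. Each litter gave 1 pool of wild type embryos (control) and 1 pool of Hoxd4 transgenic embryos, and each of the 8 pools was measured on 1 one-colour Affymetrix array. Hoxd4 is a homeobox transcription factor that patterns the neck vertebrae, and the comparison asks which transcripts differ when it is overexpressed in cartilage cells. The labels do not name the promoter that drives the transgene, the number of transgenic lines, or how many embryos a pool held. Cells were freed with collagenase and trypsin, so other cells of the rib cage could be present.

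In cartilage, aggrecan carries dense chondroitin sulphate chains and binds along hyaluronan, a long unbranched sugar polymer that hyaluronan synthases extrude at the cell surface. Link protein locks each aggrecan onto the polymer, and the resulting aggregates hold water and give the tissue its resistance to compression. Versican, a relative of aggrecan that binds hyaluronan in the same way, is best known from early condensing mesenchyme and from the perichondrium. CD44 tethers hyaluronan to the cell surface and takes it up for breakdown by hyaluronidases.

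The arrays carried the marks of cartilage. All 12 fixed chondrocyte markers (Col2a1, Col9a1, Col9a2, Col9a3, Col11a1, Col11a2, Matn1, Matn3, Cnmd, Ucma, Snorc and Sox9) passed the filter, and their summed signal lay between 319507 and 359299 in controls and between 342480 and 362748 in transgenics. All 10 markers of perichondrium and fibroblasts also passed, with sums of 186536 to 214838 and 186148 to 219823, as did all 8 of skeletal muscle, 8 of 9 of endothelium and 4 of 8 of macrophages and leukocytes. A pair of probe sets stands for Hoxd4, both shared with Hoxd3. The brighter (1450209_at) read 27.3, 42.6, 4.10 and 256 for the control pools of litters 1 to 4 and 94.1, 415, 172 and 13.0 for the transgenic pools, so it was higher in 3 of 4 litters and went against the label in litter 4 (1450209_at log2 fold change 0.87, 95% interval -0.54 to 2.28, adjusted p = 0.9997 in limma). The mean signal of 1450209_at was below the filter in controls and above it in transgenics, so its fit is a description and not a test. The other (1421537_at) read 8.92 to 48.0 over the arrays and was higher in 2 of 4 litters. Both probe sets were dim, with 1421537_at under the filter's level on every array and 1450209_at under it on most. The labels do not say whether the transgene holds the stretch that these probe sets read. They do not bear out the labels in every litter, but at such signals they cannot settle the labels in either direction. Control and transgenic mean here the arrays labelled so, and every direction below rests on those labels.

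The 4 promoters below belong to the genes on which the comparisons turn: the cartilage aggregate pair Acan and Hapln1, and Vcan and Cd44, the pair with the highest correlation over the arrays. Each is the 250 bases before the RefSeq start of the gene in GRCm38.p6, 5′ to 3′ on the gene's strand: Acan at chr7:79052976-79053225 (+), Hapln1 at chr13:89540386-89540635 (+), Vcan at chr13:89742513-89742762 (-) and Cd44 at chr2:102901666-102901915 (-). Of the 8 genes 6 matched the RefSeq promoter table used here, which gave no window for Has2 and Has3. Capitals mark matches, on either strand, to TAAT, the core that homeodomain proteins such as Hoxd4 can bind, or to GGGCGG, the GC box of the Sp and Klf families.
Acan: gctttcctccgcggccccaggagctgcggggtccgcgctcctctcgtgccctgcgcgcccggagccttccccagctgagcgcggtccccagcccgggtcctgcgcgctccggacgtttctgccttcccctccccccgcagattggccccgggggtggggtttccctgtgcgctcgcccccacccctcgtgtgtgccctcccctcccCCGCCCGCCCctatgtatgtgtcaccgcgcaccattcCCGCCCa
Hapln1: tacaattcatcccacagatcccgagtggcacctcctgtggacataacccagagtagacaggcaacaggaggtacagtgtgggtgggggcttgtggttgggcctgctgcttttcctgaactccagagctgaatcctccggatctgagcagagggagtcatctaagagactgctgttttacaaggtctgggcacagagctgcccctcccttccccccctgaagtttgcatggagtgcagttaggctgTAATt
Vcan: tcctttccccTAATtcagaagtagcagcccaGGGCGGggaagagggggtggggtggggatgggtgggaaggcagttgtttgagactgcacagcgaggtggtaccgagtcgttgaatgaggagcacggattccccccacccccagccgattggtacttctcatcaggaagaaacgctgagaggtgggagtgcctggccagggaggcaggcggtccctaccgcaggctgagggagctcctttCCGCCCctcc
Cd44: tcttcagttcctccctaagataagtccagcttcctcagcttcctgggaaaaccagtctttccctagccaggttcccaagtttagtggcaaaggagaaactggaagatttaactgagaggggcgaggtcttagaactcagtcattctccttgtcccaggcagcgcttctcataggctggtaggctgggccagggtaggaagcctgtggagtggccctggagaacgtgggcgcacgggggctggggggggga
TAAT occurred 1 time in the Hapln1 and 1 time in the Vcan window and not in those of Acan and Cd44, where 54.9% of all 32851 RefSeq windows of this length hold it. GGGCGG occurred 3 times upstream of Acan, with 2 of the matches overlapping, and 2 times upstream of Vcan, against 32.7% of all windows with at least 1 match. TATAAA and the SOX core ACAATG were searched too and had no match in these 4 windows. G and C made up 74.4% of the Acan window, 62.4% of that of Vcan, 56.4% of that of Cd44 and 54.4% of that of Hapln1, with a median of 52.4% over all windows. A match describes letters in a window, and its absence says nothing about the factor. Hapln1 and Vcan are neighbours on chromosome 13 with 0 protein-coding genes between them, and Hyal1 and Hyal2 are neighbours on chromosome 9.

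None of the 14 tested probe sets passed the test between the genotype labels. In limma 0 of 14 had an adjusted p under 0.05, against 0 (0%) of all 22518 tested probe sets, and 0 of 14 had an unadjusted p under 0.05, against 3.29% of all. With the litter as a fixed block, 0 of 14 had an unadjusted p under 0.05, against 5.54% of all. With the litter as a random block, 2 of 14 did, against 1268 of all 22518. These were Has2 1418678_at (unadjusted p = 0.042 in limma) and Hapln1 1438020_at (unadjusted p = 0.049 in limma), and neither passed after adjustment. The fitted log2 fold changes, transgenic minus control, ran from -0.19 to 0.17 with a median of 0.03, and the median over all tested probe sets was 0.003. Of the 14, 9 (64.3%) were higher and 5 lower, where 51.2% of all were higher. The 95% interval lay within a 1.5-fold change in either direction for 13 of 14 (92.9%), against 85.5% of all. A difference of that size was therefore outside the interval for every tested probe set here except the dimmest of Vcan. All fold changes are on the log2(signal + 32) scale, which shrinks those of dim probe sets.

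**Figure D1:**
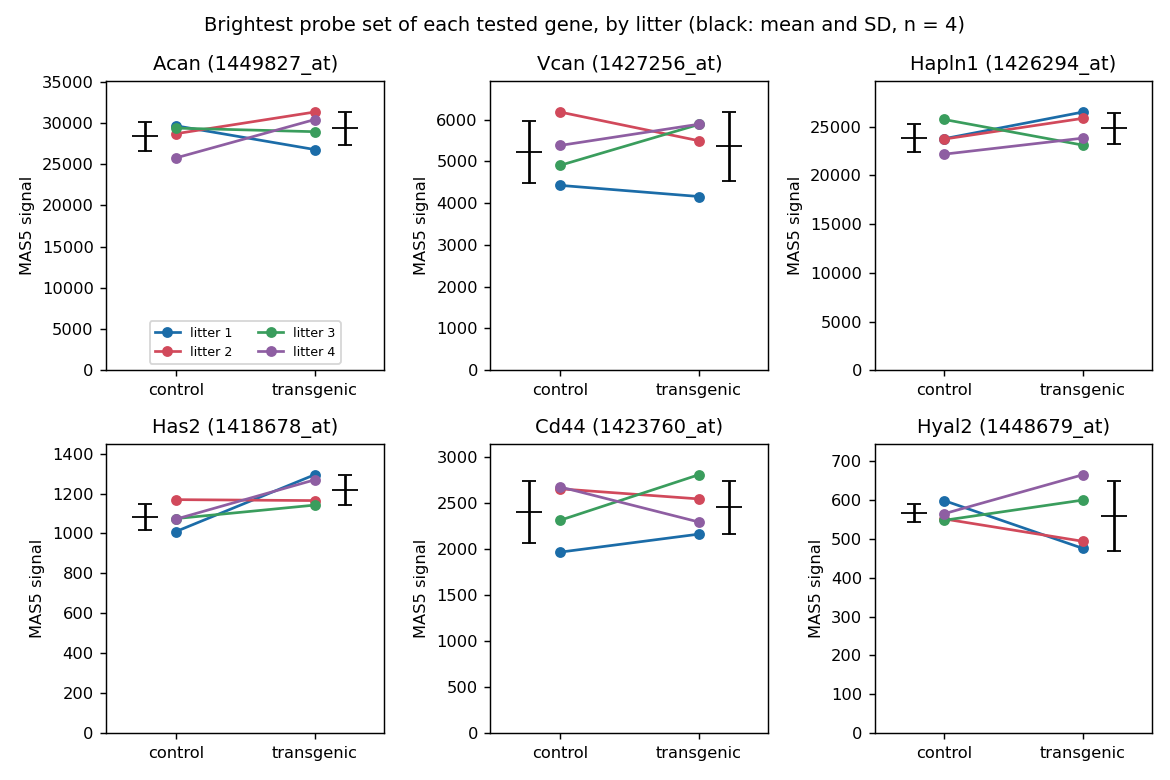
MAS5 signal (vertical axis, linear, from 0) of the brightest tested probe set of each gene, control beside transgenic, with a line joining the arrays of a litter, with the mean and SD of each group (n = 4) in black. In all 6 panels the groups overlap, and the litter 1 arrays (blue) are the lowest of both groups for Vcan and Cd44.

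The core protein of cartilage, Acan (1449827_at), read 29650, 28679, 29364 and 25742 for control pools, litters 1 to 4, and 26763, 31314, 28928 and 30401 for transgenic pools. Its groups overlapped, with the lowest value in the control of litter 4 and the highest in the transgenic of litter 2. The means were 28359 ± 1791 (SD, n = 4) and 29352 ± 1986 (SD, n = 4), a log2 fold change of 0.05 (95% interval -0.09 to 0.19, unadjusted p = 0.455, adjusted p = 0.9997 in limma). The highest array exceeded the lowest by 1.22-fold, and the SD within groups on the log2 scale, 0.10, was at the 14.8th percentile of all tested probe sets.

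Link protein was measured by 4 probe sets, and all were slightly higher in transgenics without passing the test. Hapln1 1438020_at had control signals of 22503, 21171, 22951 and 21061 and transgenic signals of 24221, 23505, 23001 and 23144. Every transgenic array lay above every control array, narrowly in litter 3 (22951 against 23001), and this was the 1 of 14 members whose groups did not overlap, against 2.27% of all tested probe sets. Its means were 21921 ± 949 (SD, n = 4) and 23468 ± 545 (SD, n = 4), a log2 fold change of 0.10 (95% interval -0.01 to 0.21, unadjusted p = 0.078, adjusted p = 0.9997 in limma). The SD within groups of this probe set, 0.05 on the log2 scale, was at the 1.32th percentile.

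The other 3 probe sets of Hapln1 overlapped between groups. The brightest, 1426294_at, read 23771, 23733, 25750 and 22184 in controls and 26514, 25866, 23112 and 23833 in transgenics, a log2 fold change of 0.06 (95% interval -0.08 to 0.19), higher in 3 of 4 litters. Hapln1 1421633_a_at differed by 0.09 and 1426295_at by 0.10, each higher in 4 of 4 litters. With 1438020_at these were 3 of the 14 members (21.4%) that were higher in every litter, against 6.83% of all tested probe sets. None of the 14 was lower in every litter, as 6.61% of all were, so 21.4% ran 1 way throughout against 13.4% of all. The 4 probe sets measure 1 transcript on the same arrays and are not independent. Pearson correlations between them over the 8 arrays lay between 0.41 and 0.76.

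Versican gave 3 probe sets above the filter, and none passed the genotype test. Vcan 1427256_at read 4425, 6180, 4902 and 5379 in controls of litters 1 to 4 and 4158, 5493, 5882 and 5889 in transgenics. The arrays of litter 1 were the lowest of both groups, and the groups overlapped almost wholly. The means were 5222 ± 748 (SD, n = 4) and 5355 ± 820 (SD, n = 4), with a log2 fold change of 0.03 (95% interval -0.22 to 0.29, unadjusted p = 0.781, adjusted p = 0.9997 in limma).

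Vcan 1421694_a_at read 3231, 4246, 3006 and 3727 in controls and 3236, 3072, 3940 and 3706 in transgenics, a log2 fold change of -0.02 (95% interval -0.25 to 0.21), a direction that turned when arrays were centred on their medians. Vcan 1427257_at read 778, 1111, 386 and 805 in controls and 535, 451, 837 and 763 in transgenics. It had the widest interval of the members, -0.74 to 0.36 around a log2 fold change of -0.19, and an SD within groups at the 98.2th percentile of all tested probe sets. Its log2 difference, transgenic minus control, was -1.24 in litter 2 and 1.05 in litter 3. Vcan 1421694_a_at went the same way in these litters, by -0.46 and 0.39, and the pair correlated at 0.90 over the arrays, against 0.49 and 0.71 for 1427256_at with each of them. The 5 remaining probe sets of Vcan were dim, with signals of 1.43 to 123 over all arrays. The probe sets of Vcan thus do not give a single pattern over the litters.

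Of the hyaluronan synthases, Has2 was measured by 2 probe sets that differed in direction. Has2 1418678_at read 1009, 1170, 1075 and 1072 in controls and 1295, 1165, 1142 and 1269 in transgenics. The transgenic arrays of litters 1 and 4 lay above every control, and those of litters 2 and 3 lay within the range of controls. The means were 1081 ± 66.2 (SD, n = 4) and 1218 ± 75.3 (SD, n = 4), a log2 fold change of 0.17 (95% interval -0.01 to 0.34, unadjusted p = 0.063, adjusted p = 0.9997 in limma), the highest of the 14. Has2 1449169_at read 945, 1103, 847 and 1136 in controls and 1038, 1105, 825 and 909 in transgenics, a log2 fold change of -0.05 (95% interval -0.30 to 0.19). The pair correlated at 0.11 over the 8 arrays. The single probe set of Has3 (1420589_at) stayed below the filter on average, with signals of 3.03, 8.64, 4.17 and 20.9 in controls and 2.96, 26.9, 10.5 and 2.55 in transgenics. No array passed the filter's level, and no fold change is given.

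The hyaluronan receptor Cd44 did not pass the test by genotype label in any of its 3 tested probe sets. Cd44 1423760_at read 1962, 2649, 2307 and 2671 in controls and 2158, 2540, 2802 and 2289 in transgenics, with a log2 fold change of 0.03 (95% interval -0.20 to 0.26, unadjusted p = 0.762, adjusted p = 0.9997 in limma). Cd44 1434376_at read 1794, 2946, 2428 and 2331 in controls and 2006, 2678, 2434 and 2243 in transgenics, a log2 fold change of -0.01 (95% interval -0.28 to 0.27) whose sign turned when arrays were centred on their medians. In both, litter 1 gave the lowest array of each group, and for 1434376_at litter 2 gave the highest. Cd44 1452483_a_at differed by 0.03 (95% interval -0.29 to 0.35). The fourth probe set of Cd44 (1443265_at) stayed between 1.58 and 39.4 on all arrays.

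The hyaluronidase gene Hyal2, whose product is held at the cell surface by a lipid anchor, read 599, 551, 548 and 565 in controls and 475, 494, 600 and 665 in transgenics. The transgenic arrays of litters 1 and 2 were the lowest of all 8 and that of litter 4 the highest, so they spread to either side of the controls. The means were 566 ± 23.2 (SD, n = 4) and 559 ± 89.9 (SD, n = 4), a log2 fold change of -0.03 (95% interval -0.28 to 0.22).

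**Figure D2:**
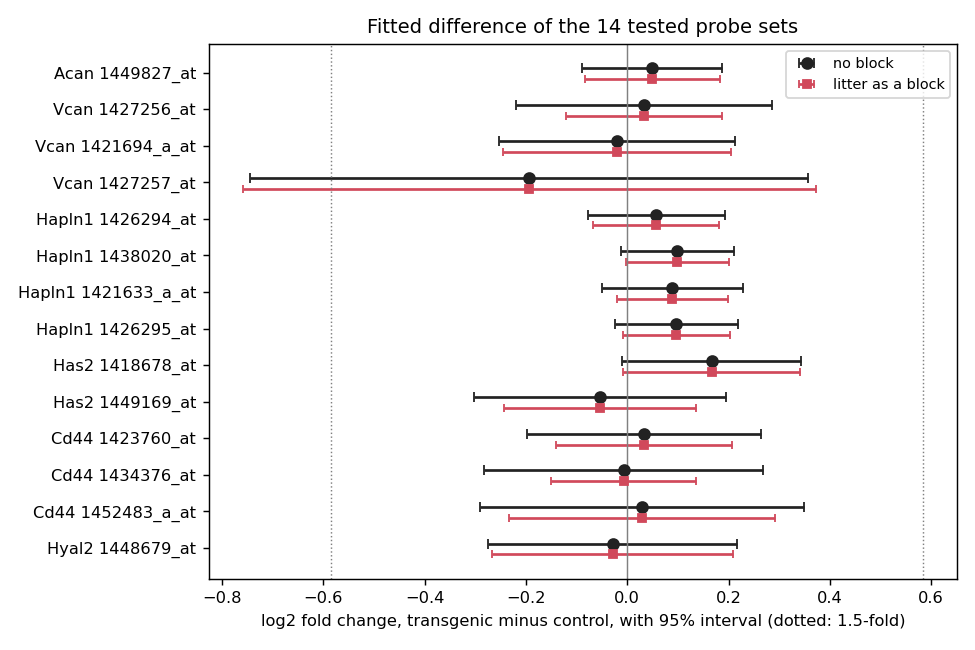
Fitted log2 fold change, transgenic minus control, of the 14 tested probe sets (points) with 95% intervals (bars), on the log2(signal + 32) scale. Black circles are without a block and red squares with the litter as a fixed block. Dotted lines mark a 1.5-fold change. All intervals include 0, and only that of Vcan 1427257_at, from -0.74 to 0.36 without the block, crosses a dotted line.

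Ratios within an array cancel its scaling, and 4 were compared, each from the brightest tested probe set of a gene. The log2 ratio of Vcan to Acan differed by -0.02 between genotype labels (exact two-sided permutation p = 0.914, adjusted p = 1 over 4 ratios), that of Cd44 to Acan by -0.02 (exact permutation p = 0.914, adjusted p = 1) and that of Hapln1 to Acan by 0.01 (exact permutation p = 1, adjusted p = 1). The ratio of Has2 to Hyal2, synthase to hyaluronidase, differed by 0.20 and was higher in 3 of 4 litters (exact permutation p = 0.229, adjusted p = 0.914). Has2 stands in this ratio by 1418678_at alone, and its other tested probe set, 1449169_at, was lower in transgenics (log2 fold change -0.05). The smallest p that 70 assignments allow is 0.0286. The SDs of these ratios within groups, 0.06 to 0.28 on the log2 scale, exceeded the difference of each ratio except that of Has2 to Hyal2 in controls, where the SD was 0.13.

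Markers of sex differed with the genotype label beside all these values. Each of the 4 tested had an unadjusted p under 0.05 in limma, against 3.29% of all tested probe sets, and none was called after adjustment. Xist, the noncoding RNA of the inactive X chromosome, had signals of 5778 to 13760 in controls and 47.2 to 8209 in transgenics, and the Y-linked Eif2s3y signals of 358 to 772 and 813 to 1178. In litter 4 Xist was not lower in the transgenic array (8098 in the control and 8209 in the transgenic). Of the 9 marker lists, 3 had a lower summed signal in transgenics in every litter: the 8 tested endothelial markers (1835 to 2488 in controls and 1366 to 2237 in transgenics), the 2 tested erythroid markers (3189 to 6520 and 2329 to 5151) and the 4 tested osteoblast markers (1282 to 1770 and 1280 to 1565). By fitted fold change 2 endothelial markers were higher and 6 lower, the 2 erythroid markers were lower, and 2 osteoblast markers were higher and 2 lower. In litter 3 the osteoblast sums were 1282 (control) and 1280 (transgenic). There the mean log2 signal of these markers was higher in the transgenic array (8.30 against 8.13). Of 10 genes that respond to tissue dissociation, 9 were higher in transgenics, where 51.2% of all tested probe sets were. Klf4 (0.29) and Dusp1 (0.17) had an unadjusted p under 0.05 in limma, and none of the 10 was called. The part of all these markers in the members' values was not tested.

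Litters were compared next. In a limma fit with genotype and litter, added after the values had been seen, 4 of 14 members (28.6%) had an unadjusted p under 0.05 for the 4 litters, against 14.6% of all tested probe sets. None passed an adjusted p of 0.05, as 0.484% of all did. Cd44 1434376_at had the smallest p of the members (unadjusted p = 5.8e-04, adjusted p = 0.069 in limma), with litter means of 1900, 2812, 2431 and 2287 for litters 1 to 4, a 1.47-fold spread. Vcan 1427256_at followed (adjusted p = 0.14 in limma), with litter means of 4291, 5836, 5392 and 5634, a 1.36-fold spread. The other 2 tested probe sets of Vcan had unadjusted p of 0.562 and 0.677 in limma. The remaining 2 of the 4 were Cd44 1423760_at (unadjusted p = 0.046 in limma), lowest in litter 1 with a mean of 2060, and Has2 1449169_at (unadjusted p = 0.049 in limma), lowest in litter 3 with a mean of 836. The 2 probe sets of Cd44 among these 4 correlated at 0.80 over the arrays and are not independent. Without litter 3, Cd44 1434376_at and Vcan 1427256_at passed, with adjusted p of 0.038 and 0.047 in limma, and without litter 1 the lowest adjusted p of any member was 0.448.

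In 4 of 14 members (28.6%) the litter 1 array was the lowest of both groups, against 12.9% of all tested probe sets. These were Vcan 1427256_at and the 3 tested probe sets of Cd44. Those of Cd44 measure 1 gene on the same arrays, with pairwise correlations of 0.65 to 0.80, and are not independent. Of 9 marker lists, 3 also had their lowest summed signal in litter 1 of both groups. The 4 tested macrophage and leukocyte markers summed to 787 (control) and 627 (transgenic) in litter 1, against 903 to 1760 and 1005 to 1568 in the other litters. The endothelial markers summed to 1835 and 1366 there, and the 2 tested erythroid markers to 3189 and 2329, with Alas2, of haem synthesis in red cell precursors, called for litters (adjusted p = 0.0032 in limma). By summed signal the other lists were not lowest there in both groups. The perichondrium and fibroblast sum was lowest in litter 1 of transgenics (186148) but in litter 4 of controls (186536), skeletal muscle likewise (20292 and 20833). By mean log2 signal, however, both of these lists were lowest in litter 1 of both groups. Perichondrium and fibroblast markers were at 13.43 (control) and 13.40 (transgenic) there, against 13.47 to 13.68 and 13.60 to 13.63 in the other litters. Skeletal muscle markers were at 10.12 and 9.96, against 10.22 to 10.49 and 10.45 to 10.54. The osteoblast sums of litter 1 (1494 and 1313) were the lowest of neither group. No tested marker of these lists was at 0, and their part in the litter differences was not tested. In pooled tissue RNA, fewer cells of a type and less RNA per cell cannot be told apart.

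Over the 8 arrays, correlations between members were compared. Among the 15 pairs of the 6 tested genes, taken at their brightest probe sets, Vcan with Cd44 had the highest Pearson correlation, 0.78 (exact permutation p = 0.0238, adjusted p = 0.357 over 15 pairs), with a Spearman rho of 0.57 (exact permutation p = 0.151, adjusted p = 0.700). The relation did not pass the correction. The permutations for the correlations treat the 8 arrays as exchangeable and take no account of shared litters. Without the 2 arrays farthest from the Vcan median, both of litter 1, r was 0.43, and without those farthest from the Cd44 median it was 0.68. Across all 9 pairs of their tested probe sets r lay between 0.11 and 0.92.

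Hapln1 ran against several members, again without passing the correction. It correlated with Hyal2 at -0.68 (Spearman rho -0.64, exact permutation p = 0.0669 for r and 0.0962 for rho, adjusted p = 0.501 and 0.700). Without the 2 arrays farthest from the Hapln1 median that r was -0.17, and without those farthest from the Hyal2 median -0.67. With Vcan, its neighbour on chromosome 13, r was -0.51 (rho -0.43, exact permutation p = 0.201 and 0.299, adjusted p = 0.839 and 0.700). Acan and Hapln1, partners in the cartilage aggregate, had an r of 0.30 (rho 0.40, exact permutation p = 0.472 and 0.327, adjusted p = 0.938 and 0.700). Without the 2 arrays farthest from the Acan median that r was 0.56, and without those farthest from the Hapln1 median 0.66. It was 0.80 over the 4 control arrays and -0.28 over the 4 transgenic arrays, too few to compare.

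**Figure D3:**
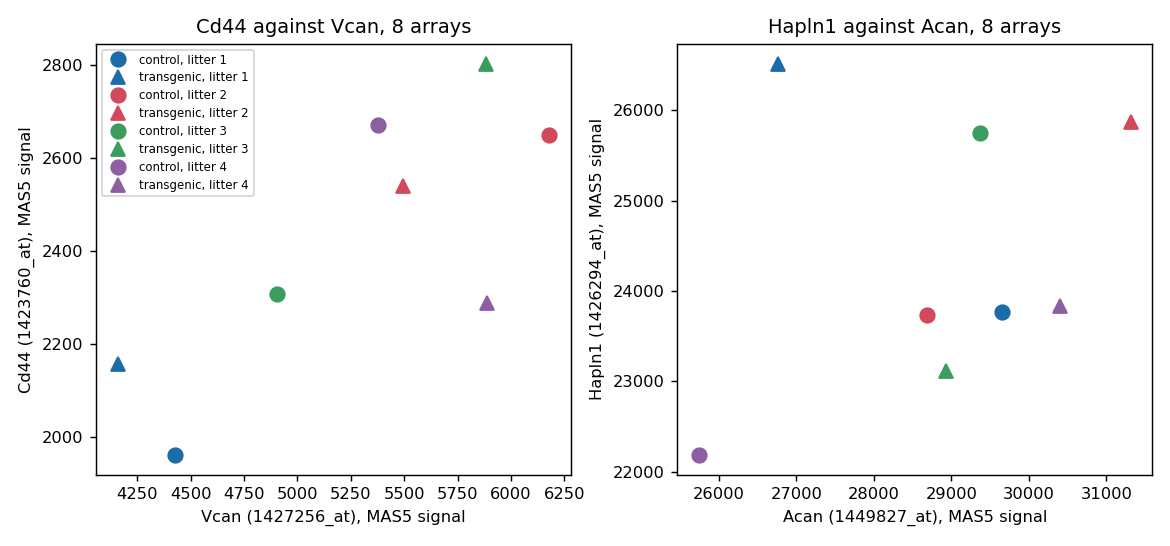
MAS5 signal of Cd44 against Vcan (left) and of Hapln1 against Acan (right) at their brightest probe sets, 1 point per array, circles for controls, triangles for transgenics and a colour per litter; axes are linear and do not start at 0. On the left both arrays of litter 1 lie at the lower left, at Vcan signals of 4425 and 4158; on the right the points show no shared order of litters.

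The genes most like 4 of the members over the 8 arrays were found by Pearson correlation, and they are given as a description, since the highest correlations out of a whole array are high by choice. For Acan they were Invs (r = 0.97), Bgn, the small proteoglycan biglycan (0.96), and Dlk1, an imprinted Notch-related protein (0.94). For Hapln1 they were the kinase gene Stk26 (0.98), Sbno1 (0.96) and Septin6, a cytoskeletal GTPase (0.96). For Vcan they were Nfatc1, a calcium-regulated transcription factor (0.98), Npepl1 (0.98) and Igfbp4, an insulin-like growth factor binding protein (0.97). For Cd44 they were Socs5, a suppressor of cytokine signalling (0.96), Slit2, a secreted guidance cue (0.96), and Cyp1b1, a cytochrome P450 (0.96). Spearman rho of these 12 lay between 0.83 and 1.

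Around the members, 84 further genes of the same pathways were followed in 7 lists, of which 63 were tested, with 32 higher and 31 lower in transgenics. None passed an adjusted p of 0.05 (0 of 63), and 2 had an unadjusted p under 0.05, against 3.29% of all. List medians lay between -0.08 and 0.04, where the median of all tested probe sets was 0.003.

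Among genes for hyaluronan precursors, synthesis and breakdown, 4 of 10 were higher and 6 lower. Gfpt1, the enzyme that commits sugar to the hexosamine pathway and so to hyaluronan's building blocks, read 6511, 6502, 7011 and 6708 in controls and 7481, 7423, 7137 and 7452 in transgenics. Every transgenic array lay above every control, where the groups of 2.27% of all tested probe sets did not overlap in either direction. The log2 fold change was 0.14 (95% interval 0.02 to 0.26, unadjusted p = 0.024, adjusted p = 0.9997 in limma). Gfpt1 is named because its unadjusted p was the smallest of this list. Has1, the third hyaluronan synthase, read 96.4, 226, 116 and 145 in controls and 21.1, 16.1, 133 and 202 in transgenics, a log2 fold change of -0.78 (95% interval -1.74 to 0.17). Its transgenic arrays split by litter, with litters 1 and 2 below every control and litters 3 and 4 within the control range. With added constants of 16 and 64 in place of 32 the fold change of Has1 was -0.97 and -0.57, without litter 2 it was -0.24, and without transgenic replicate 1 or 2 alone -0.48 or -0.43. Its mean signal was above the filter in controls and below it in transgenics. Of the hyaluronidases other than Hyal2, the probe sets of Hyal3, Hyal4 and Spam1 were below the filter.

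Of hyaluronan-binding proteins and receptors, 4 of 10 tested genes were higher and 6 lower, with Tlr4, a receptor that hyaluronan fragments can engage, at -0.24 (95% interval -0.55 to 0.08) and Lyve1, the hyaluronan receptor of lymphatic endothelium and some macrophages, at -0.37 (95% interval -0.95 to 0.21) and at -0.092 without transgenic replicate 1. Of the proteases that cut aggrecan and versican, with their inhibitor, 3 of 8 were higher and 5 lower. Timp3, the inhibitor of these proteases, was at -0.24 (95% interval -0.54 to 0.06), and Adamts1 at 0.09 (95% interval -0.13 to 0.32), with 0.012 without transgenic replicate 2.

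Chondroitin sulphate assembly gave 12 higher and 8 lower of 20. Chst12, a chondroitin 4-sulphotransferase, read 1502, 1270, 1114 and 1223 in controls and 1506, 1653, 1401 and 1410 in transgenics, higher in 4 of 4 litters with overlapping groups (log2 fold change 0.22, 95% interval 0.02 to 0.43, unadjusted p = 0.037, adjusted p = 0.9997 in limma). Csgalnact2, which helps start and extend the chain, was at 0.14 (95% interval -0.09 to 0.37) and at 0.030 without transgenic replicate 2. Of 7 genes listed for the cytoskeletal linkage and shedding of CD44, 5 were higher and 2 lower. The latter were Ezr (-0.16), whose product ties membrane receptors to actin, and Nf2 (-0.15, and -0.059 without transgenic replicate 1). Of the 3 SOX factors that activate Acan and Hapln1, Sox9 was at 0.07, Sox5 at -0.11 and Sox6 at -0.08.

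**Figure D4:**
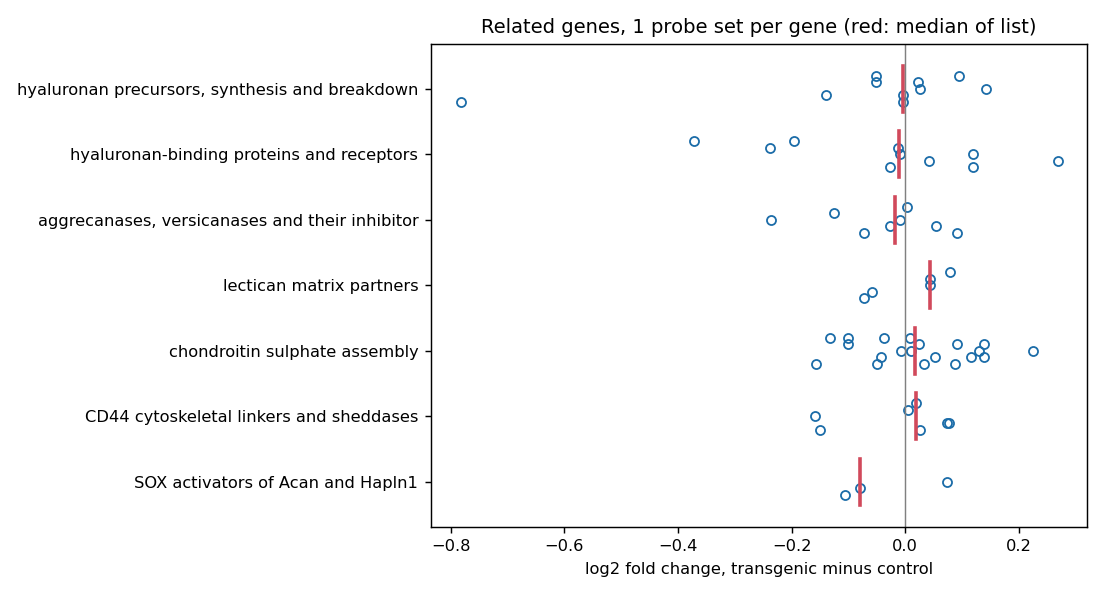
Log2 fold change, transgenic minus control, of the tested genes of 7 pathway lists (open circles, 1 probe set per gene, spread vertically only to separate them), with the median of each list as a red bar. Most circles lie near 0; the circle farthest from it is Has1 at -0.78, from a dim probe set.

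Of the matrix proteins that bind lecticans, the family of aggrecan and versican, 3 of 5 were higher and 2 lower, with Fbln1 at -0.07 and Fbn2 at 0.04. In this list 1 gene passed the test for litters, and it is named for that after its values were seen. Tnn, tenascin-N, a matrix protein of the periosteum, read 1172, 2273, 1516 and 1691 in controls of litters 1 to 4 and 1099, 2364, 1581 and 2080 in transgenics (unadjusted p = 5.3e-06, adjusted p = 0.0062 in limma). Litter 1 was the lowest and litter 2 the highest in each group, as for Cd44 1434376_at. Over all 63 tested genes of the lists, 16 (25.4%) had an unadjusted p under 0.05 for litters, against 14.6% of all tested probe sets. The share differed among the lists, from 1 of 20 for chondroitin sulphate assembly and 1 of 10 for hyaluronan precursors, synthesis and breakdown to 4 of 5 for the lectican partners. The 9 marker lists ran from 25% (osteoblast and endothelium) to 100% (erythroid, 2 of 2). Among them were 7 of 10 for dissociation, 5 of 8 for skeletal muscle and 5 of 10 for perichondrium and fibroblasts. A share above that of all tested probe sets was thus not particular to the pathway genes.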

How the data were processed

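RNA of 8 pools was measured on 8 arrays. The submitters' processing notes name MAS5, and the authors deposited its linear intensities, 1 per probe set. The MAS5 version is not given in the sources used here, and detection calls were not used. On every array the mean without the top and bottom 2% was 500.003, the mark of scaling to a common level. The number of arrays limits the precision.

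After 64 control probe sets were left out, signals were turned to log2(signal + 32) and tested in limma 3.58.1 (R 4.3.3, statmod 1.5.0) with an intensity trend, 1 coefficient for genotype and Benjamini-Hochberg adjustment over 22518 probe sets with a mean above the median. Ratios and correlations were tested by exact two-sided permutation in Python 3.11.15. Genes were named through GEO's platform annotation (34945 probe sets with 1 symbol, 932 with several, 9160 unnamed), checked against RefSeq. The fits were run on simulated data to check the code. For the genotype fits the simulated arrays shared no litter signal, and no genotype change as small as those of the members was simulated.

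Same-numbered arrays share a litter by the labels. Deviations of same-litter arrays correlated at 0.04 to 0.28 (mean 0.16), and those of different litters at -0.15 to 0.089 (mean -0.05). Litter 3 (0.041) did not stand out from different litters. The pools come from different embryos, and p-values measure the spread between pools.

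The members and lists were chosen with earlier results of these data known. Named were all members, the 2 genes of each list with the smallest p, and for Acan, Hapln1, Vcan and Cd44 the 3 genes with the highest correlation over the arrays. Alternatives tried were a litter block (fixed or random), added constants of 16 and 64, quantile normalization, centring, the mean of a gene's tested probe sets for ratios, no filter or a mean above 200, no trend, and leaving out each array or litter.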

Additional observations from a re-analysis of the deposited data

How the results depend on the processing

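No member probe set and no pathway gene passed an adjusted p of 0.05 in limma under any of the 21 alternatives to each count. With the litter as a block, fixed or random, 0 of 14 members passed, with lowest adjusted p of 0.893 and 0.884, 0 pathway genes did (0.839 and 0.865), and 0 of all probe sets did (0.300 and 0.134). With labels exchanged only within litters as a block, the exact permutation p of the ratios was 0.875 for Vcan to Acan, 1 for Hapln1 to Acan and for Cd44 to Acan, and 0.375 for Has2 to Hyal2. These 16 assignments allow no p under 0.125, so no ratio could have passed. The limma block fits changed no call. Over all probe sets the count of calls ran from 0 to 2 when arrays or litters were left out, with 1 without transgenic replicate 4 and 2 without litter 4.

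Directions of small differences turned. Centring arrays on their medians gave 0.0059 for Vcan 1421694_a_at and 0.019 for Cd44 1434376_at, and quantile normalization gave 0.0021 for the ratio of Vcan to Acan. Leaving out an array or a litter moved the log2 fold change of Acan between -0.014 and 0.11, of Vcan 1427256_at between -0.043 and 0.15, of 1421694_a_at between -0.16 and 0.13 and of 1427257_at between -0.61 and 0.16. It moved Cd44 1423760_at between -0.058 and 0.12, 1434376_at between -0.13 and 0.10 and 1452483_a_at between -0.12 and 0.17, Has2 1449169_at between -0.13 and 0.033 and Hyal2 between -0.11 and 0.066. Sox6 ran between -0.19 and 0.0065, Fbln1 between -0.15 and 0.020 and Fbn2 between -0.012 and 0.090. The ratio of Vcan to Acan ran between -0.12 and 0.077, of Hapln1 to Acan between -0.091 and 0.056, of Cd44 to Acan between -0.13 and 0.13 and of Has2 to Hyal2 between 0.040 and 0.27. Timp3 ran between -0.36 and -0.12, Ezr between -0.25 and -0.11 and Sox5 between -0.16 and -0.043. The 4 probe sets of Hapln1 (1426294_at between 0.023 and 0.13) and Has2 1418678_at (between 0.11 and 0.22) stayed higher in transgenics in every one of these fits.

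The litter comparison and the correlation of Vcan with Cd44 were added after seeing the data. The litter test called 109 probe sets, 30 with no filter, 234 with centring and 0 without the intensity trend, and from 10 (without litter 1) to 286 (without litter 3) when arrays or litters were left out, with 11 without control replicate 1 and 18 without transgenic replicate 1. It called 0 members except without litter 3, with 2. The correlation ran from 0.43 (without litter 1) to 0.91. The cause of these shifts was not tested. MAS5 leaves dim probe sets noisy, so the 7 members below the filter bear no comparison.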
